A study of Homo sapiens with 12 samples.

Results

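The unfolded protein response and the ATF4 response are the programmes by which a cell answers misfolded protein in the endoplasmic reticulum (ER) and shortage of amino acids. A list of 36 of their genes was followed here in progestin-treated breast cancer cells, in an ATF4 arm of 18 genes and an ATF6/XBP1 arm of 18. The genes were assigned to the arms here from their textbook roles, and DDIT3, HERPUD1 and EDEM1 respond to more than a single branch. A gene was taken from the probe sets that the array's annotation pairs with its symbol alone, using the brightest by the mean of all 12 arrays. This left 35 of the 36 genes, of 18417 genes measured in this way. PDIA3, a disulfide isomerase gene of the ATF6/XBP1 arm, was left out because both its probe sets are shared with the pseudogene PDIA3P1.

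ER stress is sensed by membrane proteins, among them the kinases PERK (gene EIF2AK3) and IRE1 (gene ERN1) and the transcription factor ATF6. PERK, under ER stress, and the kinase GCN2, under amino acid shortage, phosphorylate the initiation factor eIF2α, which lowers translation in general and raises that of the mRNA of ATF4, a factor that turns on genes of amino acid synthesis, transport and redox control. ATF6 is released from the membrane by cleavage, and IRE1 splices the XBP1 mRNA into the form that codes for the active factor. These factors turn on genes of folding, of protein translocation into the ER and of ER-associated degradation, which sends misfolded proteins to the proteasome. Secretory cells such as those of the mammary epithelium rely on this machinery. The arrays measure mRNA, so that cleavage, splicing and translation are not seen in them.

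Gene expression was measured in T47D-MTVL cells, a line derived from the T47D breast cancer line that carries a single copy of the MMTV promoter, coupled to luciferase. The cells were transfected with an siRNA against the chromatin remodeler CHD8 (siCHD8) or a control siRNA (siCt) and, after 48 h without serum, received 10 nM R5020, a synthetic progestin, or ethanol as vehicle (EtOH) for 6 h. Each of the 4 conditions, siCHD8 with R5020, siCHD8 with vehicle, siCt with R5020 and siCt with vehicle, has 3 arrays that the labels name biological replicates. Nothing in the labels says whether these came from separate cultures, so that p-values measure the spread between these samples, which may be in part technical, and all come from 1 line and 1 siRNA against CHD8. An intensity of RNA from a whole culture does not tell a change in many cells from a larger one in few.

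CHD8, the siRNA's target, had log2 intensities of 4.77, 4.62 and 4.81 in siCHD8 with R5020, against 5.52, 5.24 and 5.29 in siCt with R5020, and of 5.42, 5.11 and 5.04 in siCHD8 with vehicle, against 5.70, 5.71 and 5.91 in siCt with vehicle. The arrays did not overlap in either pair. The differences of -0.62 with R5020 and -0.58 with vehicle had adjusted p-values of 0.0627 and 0.0711 in limma, above the limit of 0.05. CHD8 also fell with R5020, by 0.46 in siCHD8 (adjusted p = 0.0258) and by 0.42 in siCt (0.0349). The siCHD8 call was lost without siCHD8 EtOH replicate 1 (0.0961) or any siCHD8 R5020 array (0.05 to 0.116), and the siCt call without siCt EtOH replicate 1 (0.0557) or 3 (0.118) or siCt R5020 replicate 2 (0.119) or 3 (0.118). The array medians lay between 4.52 and 4.62, and arrays correlated at 0.989 to 0.996 within a condition. As a check of signal over background, and not of mRNA levels, luminal epithelial markers had gene means between 6.95 and 11.07, and the median gene mean was 3.53 for basal and mesenchymal, 3.37 for fibroblast and 1.94 for blood and endothelial markers. Of 8 luminal markers 5 fell with R5020 in siCHD8, where 5.43% of all probe sets fell, and 5 in siCt, where 6.0% fell. The log2 of their summed intensity was 12.61 to 12.66 in siCHD8 with R5020, against 12.81 to 13.01 with vehicle, and 12.65 to 12.8 in siCt with R5020, against 13.1 to 13.18 with vehicle, and its part in the hormone responses below was not tested.

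The probe sets of the genes followed were mostly bright, with a median at the 89.8th percentile of all probe sets tested. VLDLR, with a mean of 3.87, had the least signal. Values are log2 intensities and depend on each probe set's own probes, so brightness says how much signal a probe set has and not which gene has more mRNA.

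The proximal promoters of 32 of the genes are in the RefSeq table of assembly GRCh38.p14, 15 of the ATF4 arm and 17 of the ATF6/XBP1 arm, without NUPR1, PSPH, SHMT2 and PDIA3. In windows of 300 bases, 250 before to 50 after the start, patterns of 4 known elements were sought on both strands. The ATF4 and C/EBP composite element, TGATGNAA, stood in the windows of CEBPG, CHAC1 and ASNS in the ATF4 arm and of HERPUD1 in the ATF6/XBP1 arm, and in 4.46% of all 27305 genes with a window (3.62% of the 35116 windows). Of the elements to which ATF6 and XBP1 bind, the ER stress element, CCAAT and CCACG with 9 bases between them, stood in PDIA6, CANX, CALR, XBP1 and CRELD2 (0.0916% of all genes) and the ER stress element II, ATTGG and CCACG with 1 base between them, in HYOU1, HERPUD1 and SDF2L1 (0.0696%). Either of these was in 8 of 17 genes of the ATF6/XBP1 arm and in 0 of 15 of the ATF4 arm, beside 44 of all genes with a window (0.161%). The unfolded protein response element TGACGTGG stood in HYOU1 (0.927% of all genes), where it overlaps a match to the ER stress element II. A match is a description of the letters and not a bound site. The sequences below show 6 of these promoters, as the 250 bases before the start in the gene's direction with the matches in capitals, which on the reverse strand read as the pattern's complement. CEBPG, CHAC1 and ASNS carry TGATGNAA or its complement.
CEBPG: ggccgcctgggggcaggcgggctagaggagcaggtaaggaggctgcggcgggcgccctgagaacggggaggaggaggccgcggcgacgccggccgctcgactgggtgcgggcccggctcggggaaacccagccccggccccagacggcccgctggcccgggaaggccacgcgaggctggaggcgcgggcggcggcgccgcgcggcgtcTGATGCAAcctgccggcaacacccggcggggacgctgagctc
CHAC1: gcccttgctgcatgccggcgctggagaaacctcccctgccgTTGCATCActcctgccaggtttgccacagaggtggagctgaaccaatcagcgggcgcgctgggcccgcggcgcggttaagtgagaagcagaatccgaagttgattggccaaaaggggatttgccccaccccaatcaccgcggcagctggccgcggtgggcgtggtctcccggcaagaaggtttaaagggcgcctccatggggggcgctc
ASNS: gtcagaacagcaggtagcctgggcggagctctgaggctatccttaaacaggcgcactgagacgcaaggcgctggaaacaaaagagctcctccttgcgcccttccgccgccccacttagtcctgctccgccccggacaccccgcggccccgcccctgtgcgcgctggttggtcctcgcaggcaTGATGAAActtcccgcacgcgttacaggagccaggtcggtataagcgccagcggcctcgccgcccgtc
HERPUD1 carries a match to the composite element and another to the ER stress element II, HYOU1 carries the ER stress element II at a pair of places with TGACGTGG joined to the more distant, and XBP1, itself the gene of a factor that binds these elements, carries the ER stress element near its start.
HERPUD1: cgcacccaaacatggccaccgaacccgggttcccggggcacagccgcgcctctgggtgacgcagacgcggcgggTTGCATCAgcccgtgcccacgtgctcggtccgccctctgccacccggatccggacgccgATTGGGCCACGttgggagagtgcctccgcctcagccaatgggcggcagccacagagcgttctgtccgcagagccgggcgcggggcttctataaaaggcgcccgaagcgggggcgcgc
HYOU1: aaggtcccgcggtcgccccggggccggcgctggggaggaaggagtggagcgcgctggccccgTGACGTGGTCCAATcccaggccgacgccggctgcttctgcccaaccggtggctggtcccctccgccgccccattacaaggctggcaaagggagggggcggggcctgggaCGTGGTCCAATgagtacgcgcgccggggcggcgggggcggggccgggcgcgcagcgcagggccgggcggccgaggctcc
XBP1: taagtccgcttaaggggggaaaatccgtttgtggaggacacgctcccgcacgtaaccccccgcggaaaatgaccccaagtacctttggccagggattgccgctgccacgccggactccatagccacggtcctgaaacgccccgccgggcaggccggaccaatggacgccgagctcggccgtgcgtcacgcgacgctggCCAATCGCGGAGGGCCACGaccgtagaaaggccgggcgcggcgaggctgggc
The stretches lie at chr19:33373863-33374112 (plus strand) for CEBPG, chr15:40953221-40953470 (plus strand) for CHAC1, chr7:97872409-97872658 (minus strand) for ASNS, chr16:56931892-56932141 (plus strand) for HERPUD1, chr11:119057206-119057455 (minus strand) for HYOU1 and chr22:28800570-28800819 (minus strand) for XBP1, just before each annotated start, in GRCh38.p14.

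CEBPG, VLDLR and DDIT4, of the ATF4 arm, rose with R5020 in siCHD8 cells and in siCt cells, while PSPH fell in siCHD8 and ATF5 in siCt. In siCHD8 cells 4 of 18 rose (DDIT4, CEBPG, NUPR1 and VLDLR) and 1 fell (PSPH), a share of 27.8%, against 11.5% of the 21214 probe sets tested, and 6.04% of them rose and 5.43% fell. In siCt cells 6 of 18 rose (VLDLR, CEBPG, DDIT4, MTHFD2, PSAT1 and CHAC1) and 1 fell (ATF5), a share of 38.9%, against 14.1% of all probe sets, and 8.1% of them rose and 6.0% fell. Among all probe sets with a mean of 5 or more, as every gene followed but VLDLR had, the shares were 19.5% in siCHD8 and 23.1% in siCt. The median log2 change of the arm was 0.25 in siCHD8 and 0.29 in siCt, against -0.02 in siCHD8 and -0.05 in siCt over all probe sets. The responses in siCHD8 and siCt, which share no array, had the same sign for 16 of the 18 genes, against 64.2% of all probe sets, with an r of 0.78 across the 18 genes and of 0.74 across all probe sets.

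**Figure D1:**
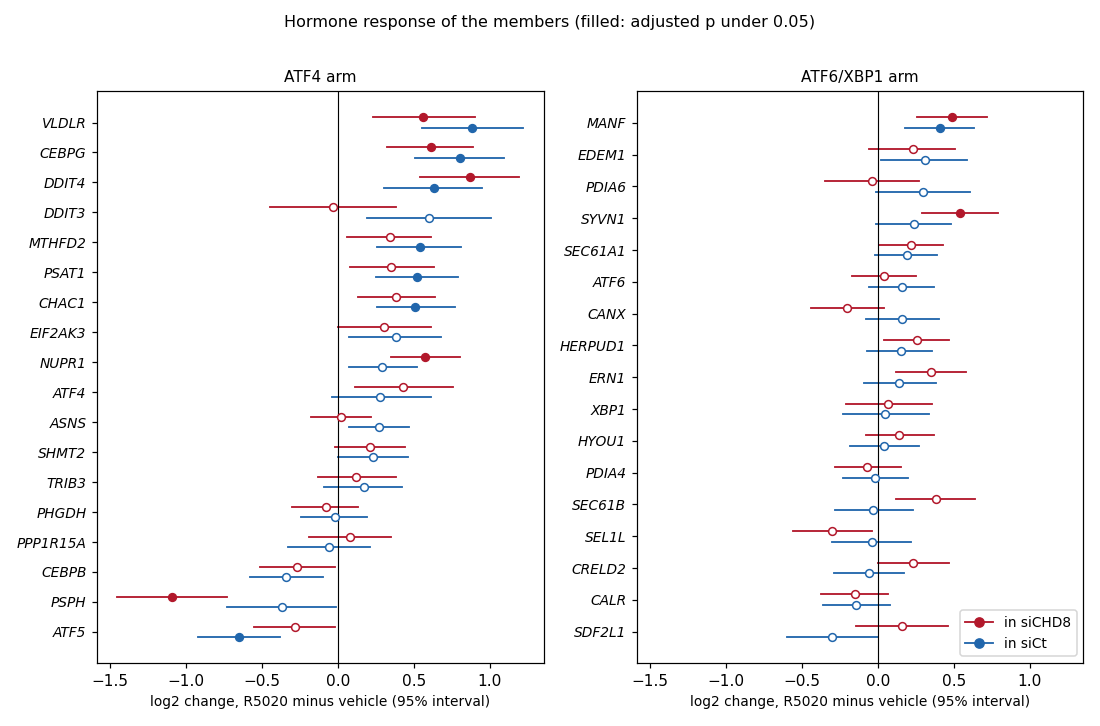
Log2 change with R5020 over vehicle for each gene of the ATF4 arm (left) and the ATF6/XBP1 arm (right), in siCHD8 (red) and siCt (blue), 3 arrays against 3, with 95% intervals. Filled points passed an adjusted p of 0.05 in limma, which CEBPG, VLDLR, DDIT4 and MANF did in siCHD8 and in siCt.

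CEBPG encodes C/EBPγ, a leucine zipper factor that pairs with ATF4. In siCHD8 cells CEBPG was at 7.20, 7.09 and 7.24 with R5020, against 6.59, 6.86 and 6.25 with vehicle, and in siCt cells at 7.21, 7.37 and 7.25 with R5020, against 6.58, 6.39 and 6.46 with vehicle. No R5020 array overlapped a vehicle array. CEBPG rose by 0.61 (SE 0.13, 1.52 times, limma adjusted p = 0.00719) in siCHD8 and by 0.80 (SE 0.13, 1.74 times, adjusted p = 0.000702) in siCt, and it passed under each of the 24 alternatives in siCHD8 and in siCt.

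DDIT4 encodes REDD1, an inhibitor of the growth kinase complex mTORC1. In siCHD8 cells DDIT4 was at 6.99, 7.25 and 6.92 with R5020, against 6.39, 6.36 and 5.81 with vehicle, and in siCt cells at 7.42, 7.39 and 7.35 with R5020, against 6.64, 6.67 and 6.97 with vehicle. The R5020 arrays were the higher in each, with siCHD8 below siCt at either treatment. DDIT4 rose by 0.87 (SE 0.15, 1.82 times, adjusted p = 0.00123) in siCHD8 and by 0.63 (SE 0.15, 1.54 times, adjusted p = 0.0116) in siCt. Without siCt EtOH replicate 1 the adjusted p in siCt was 0.0503.

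VLDLR, the receptor of very low density lipoprotein, is a dim probe set here, at the 39.8th percentile. In siCHD8 cells VLDLR was at 4.20, 4.29 and 3.75 with R5020, against 3.79, 3.30 and 3.47 with vehicle, and in siCt cells at 4.33, 4.52 and 4.27 with R5020, against 3.59, 3.31 and 3.57 with vehicle. The arrays overlapped in siCHD8, where 1 R5020 array lay under the highest vehicle array, and not in siCt. VLDLR rose by 0.56 (SE 0.16, adjusted p = 0.0296) in siCHD8 and by 0.88 (SE 0.16, 1.85 times, adjusted p = 0.00112) in siCt. The call in siCHD8 was lost without siCHD8 R5020 replicate 1 (adjusted p = 0.115) or 2 (0.143) and without siCHD8 EtOH replicate 2 (0.13) or 3 (0.0785).

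NUPR1, a small stress-induced nuclear protein, was at 10.90, 10.84 and 10.99 in siCHD8 with R5020, against 10.34, 10.32 and 10.36 with vehicle, and at 11.08, 10.92 and 10.89 in siCt with R5020, against 10.60, 10.59 and 10.82 with vehicle. The arrays were apart in both. NUPR1 rose by 0.57 (SE 0.10, adjusted p = 0.00161) in siCHD8, and its change in siCt was 0.29 (SE 0.10, adjusted p = 0.0748, or 0.0337 without siCt EtOH replicate 3). CHAC1, an enzyme that breaks down glutathione, was at 6.36, 6.34 and 6.23 in siCHD8 with R5020, against 5.83, 5.82 and 6.14 with vehicle, and at 6.44, 6.46 and 6.26 in siCt with R5020, against 5.96, 5.70 and 5.95 with vehicle. Here too no arrays overlapped. The change of CHAC1 in siCHD8 was 0.38 (SE 0.12, adjusted p = 0.053), and it rose by 0.51 (SE 0.12, adjusted p = 0.00865) in siCt. The siCHD8 change passed without siCHD8 EtOH replicate 3 (0.0171) and, at 0.0458 and 0.0487, without siCt EtOH replicate 2 or 3.

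The arm holds the enzymes of serine synthesis, PHGDH, PSAT1 and PSPH in the order of their steps, and the mitochondrial folate enzymes SHMT2 and MTHFD2 that draw on serine. These 5 did not move as 1 group. MTHFD2 was at 8.55, 8.67 and 8.38 in siCHD8 with R5020, against 8.34, 7.99 and 8.26 with vehicle, and at 8.78, 8.83 and 8.92 in siCt with R5020, against 8.24, 8.51 and 8.17 with vehicle. PSAT1 was at 6.99, 6.93 and 6.98 in siCHD8 with R5020, against 6.68, 6.59 and 6.57 with vehicle, and at 7.20, 7.36 and 7.18 in siCt with R5020, against 6.47, 7.03 and 6.69 with vehicle. For both genes the R5020 arrays lay above the vehicle arrays in siCHD8 and in siCt. In siCHD8 the changes were 0.34 (adjusted p = 0.118) for MTHFD2 and 0.35 (adjusted p = 0.102) for PSAT1, and in siCt MTHFD2 rose by 0.54 (SE 0.13, adjusted p = 0.0101) and PSAT1 by 0.52 (SE 0.13, adjusted p = 0.0126). The second probe set of MTHFD2 had 0.32 in siCHD8 and 0.59 (adjusted p = 0.0437) in siCt. The PSAT1 call in siCt was lost without siCt EtOH replicate 1 (0.0655) or siCt R5020 replicate 2 (0.0571), and PSAT1 passed in siCHD8 without siCt EtOH replicate 2 (0.0434).

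PSPH went the other way. It was at 5.86, 5.94 and 6.11 in siCHD8 with R5020, against 7.22, 6.89 and 7.07 with vehicle, and at 6.41, 6.58 and 6.54 in siCt with R5020, against 7.07, 7.18 and 6.40 with vehicle. The arrays were apart in siCHD8, while in siCt vehicle replicate 3 lay below the others. PSPH fell by 1.09 (SE 0.17, 0.468 times, adjusted p = 0.000381) in siCHD8, the lowest adjusted p of the arm there, and its change in siCt was -0.37 (SE 0.17, adjusted p = 0.166). Without siCt EtOH replicate 3 the siCt change was -0.61 (adjusted p = 0.00508). Its second probe set had -0.88 (adjusted p = 0.00262) in siCHD8 and -0.56 (adjusted p = 0.0401) in siCt. PSPH has a near-identical pseudogene, PSPHP1, whose share of the signal was not tested. PHGDH had changes of -0.08 in siCHD8 and -0.02 in siCt, and SHMT2 of 0.21 in siCHD8 and 0.23 in siCt, none of which passed.

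ATF4 itself was at 8.64, 8.59 and 8.16 in siCHD8 with R5020, against 8.08, 8.04 and 7.97 with vehicle, and at 8.63, 8.37 and 8.64 in siCt with R5020, against 8.26, 8.54 and 8.00 with vehicle. The arrays were apart in siCHD8 and overlapped in siCt. Its changes of 0.43 (95% interval 0.11 to 0.76, adjusted p = 0.0906) in siCHD8 and 0.28 (-0.04 to 0.61, adjusted p = 0.246) in siCt did not pass, and the siCHD8 change was 0.59 (adjusted p = 0.0277) without siCHD8 R5020 replicate 3. A second probe set of ATF4 had 0.40 in siCHD8 and 0.27 in siCt. EIF2AK3, the gene of PERK, was at 6.14, 6.08 and 5.82 in siCHD8 with R5020, against 6.00, 5.71 and 5.41 with vehicle, and at 6.23, 6.07 and 6.09 in siCt with R5020, against 5.89, 5.74 and 5.64 with vehicle. Its changes were 0.30 (adjusted p = 0.225) with overlapping arrays in siCHD8 and 0.38 (adjusted p = 0.097) with arrays apart in siCt.

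The other factors of the arm were mixed. ATF5, a leucine zipper factor related to ATF4, was at 5.74, 5.48 and 5.70 in siCHD8 with R5020, against 5.87, 5.89 and 6.00 with vehicle, and at 5.37, 5.49 and 5.37 in siCt with R5020, against 5.87, 5.97 and 6.34 with vehicle. Its R5020 arrays lay below its vehicle arrays in both. The change of ATF5 in siCHD8 was -0.28 (SE 0.13, adjusted p = 0.191), and in siCt it fell by 0.65 (SE 0.13, 0.637 times, adjusted p = 0.00224). CEBPB, the gene of C/EBPβ, had changes of -0.27 (adjusted p = 0.17) in siCHD8 and -0.34 (adjusted p = 0.0585, or 0.0478 without siCHD8 EtOH replicate 3) in siCt. DDIT3 encodes CHOP, the factor tied to cell death in prolonged ER stress. DDIT3 was at 8.30, 8.13 and 8.06 in siCHD8 with R5020, against 8.26, 7.92 and 8.41 with vehicle, and at 7.93, 7.73 and 7.94 in siCt with R5020, against 7.56, 7.53 and 6.71 with vehicle. The arrays overlapped in siCHD8, where the change was -0.03, and were apart in siCt, where it was 0.60 (SE 0.19, adjusted p = 0.0517). It passed in siCt without siCt EtOH replicate 1 (0.0303) or 2 (0.0311) or siCHD8 EtOH replicate 2 (0.0459). Each of these fits kept siCt EtOH replicate 3, whose 6.71 lay well below the other vehicle arrays. Without replicate 3 the siCt change of DDIT3 did not pass.

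The remaining genes of the arm did not pass. ASNS, asparagine synthetase, was at 6.46, 6.48 and 6.44 in siCHD8 with R5020, against 6.54, 6.37 and 6.41 with vehicle, and at 6.67, 6.71 and 6.64 in siCt with R5020, against 6.34, 6.41 and 6.45 with vehicle. Its change was 0.02 in siCHD8 and, with arrays apart, 0.27 (adjusted p = 0.0729) in siCt. TRIB3, a pseudokinase that ATF4 and CHOP induce, had 0.12 in siCHD8 and 0.17 in siCt, and PPP1R15A, whose protein GADD34 brings a phosphatase to eIF2α, had 0.08 in siCHD8 and -0.06 in siCt, with overlapping arrays throughout. Counted by arrays alone, 8 of the 18 genes had every R5020 array above every vehicle array in siCHD8 and 2 had every one below, where 13.0% of all probe sets lay above and 14.2% below. In siCt the counts were 10 above and 2 below, where 15.3% of all probe sets lay above and 18.6% below.

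**Figure D2:**
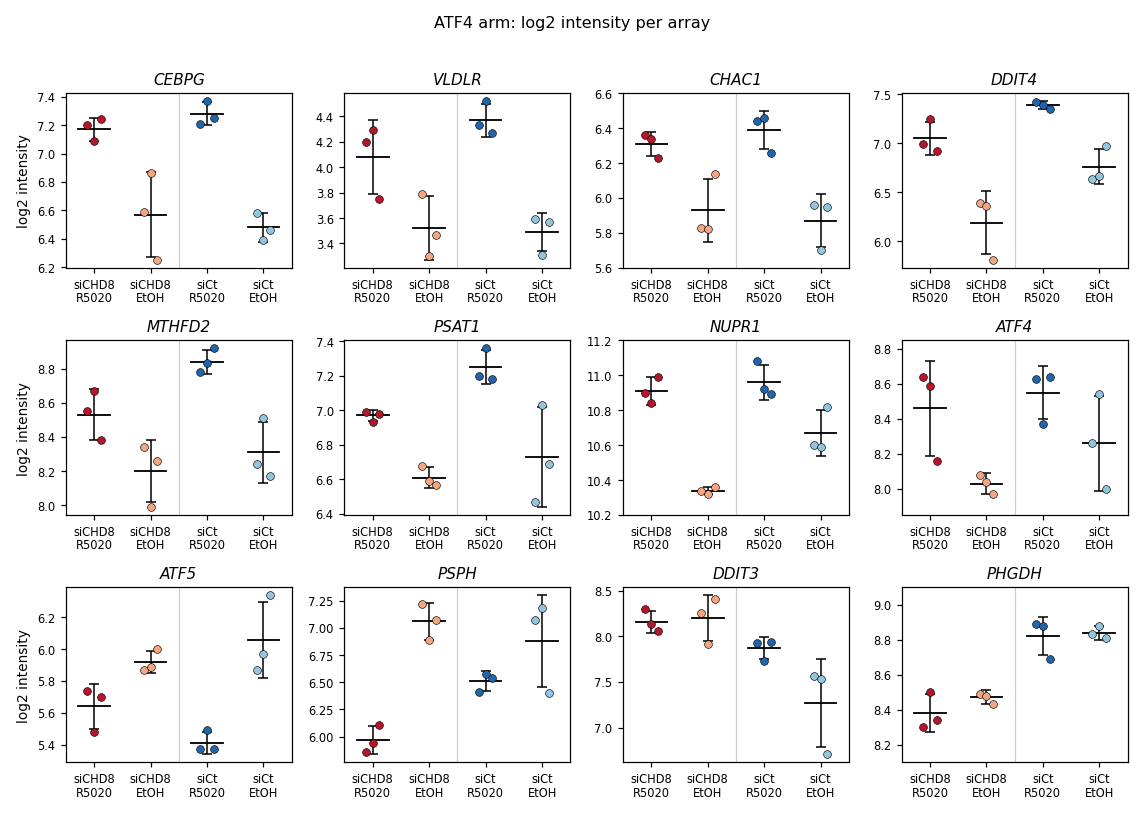
Log2 intensity of 12 genes of the ATF4 arm on each array, by condition (siCHD8 with R5020, siCHD8 with vehicle, siCt with R5020, siCt with vehicle), with the mean as a line and the SD as bars (n = 3); the vertical axes differ in range and do not start at 0. The R5020 points lie above the vehicle points for CEBPG, DDIT4 and NUPR1 and below them for ATF5, and for PSPH in siCHD8.

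In the ATF6/XBP1 arm few genes passed with R5020. In siCHD8 cells 2 of 17 rose (SYVN1 and MANF) and none fell, a share of 11.8%, against 11.5% of all probe sets. In siCt cells 1 of 17 rose (MANF) and none fell, a share of 5.88%, against 14.1%. An unadjusted p under 0.05 was found for 8 of 17 in siCHD8 and 3 of 17 in siCt, where 22.4% of all probe sets had one in siCHD8 and 27.9% in siCt. The median change was 0.16 in siCHD8 and 0.14 in siCt. Among all probe sets with a mean of 5 or more, the shares called were 19.5% in siCHD8 and 23.1% in siCt. The responses had the same sign for 12 of the 17 genes, against 64.2% of all probe sets. The r was 0.36 across the 17 genes and 0.74 across all probe sets. By arrays alone, 7 of 17 lay above and 1 below in siCHD8, where 13.0% and 14.2% of all probe sets did. In siCt 5 lay above and 1 below, where 15.3% and 18.6% did.

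MANF encodes a small ER-resident protein that cells release under ER stress. In siCHD8 cells MANF was at 8.29, 8.27 and 8.37 with R5020, against 7.86, 7.76 and 7.82 with vehicle, and in siCt cells at 8.26, 8.36 and 8.08 with R5020, against 7.83, 7.71 and 7.95 with vehicle. The R5020 arrays were the higher in each, without overlap. MANF rose by 0.49 (SE 0.11, 1.41 times, adjusted p = 0.00607) in siCHD8 and by 0.41 (SE 0.11, 1.32 times, adjusted p = 0.0186) in siCt. The call in siCt was lost without siCt R5020 replicate 1 (0.0661) or 2 (0.0863) and without siCt EtOH replicate 1 (0.0512) or 2 (0.0675), with changes of 0.34 to 0.40.

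SYVN1 encodes HRD1, the ubiquitin ligase of ER-associated degradation, and SEL1L its partner in the membrane. In siCHD8 cells SYVN1 was at 8.24, 8.03 and 8.31 with R5020, against 7.52, 7.68 and 7.76 with vehicle, and in siCt cells at 8.12, 8.03 and 8.02 with R5020, against 7.72, 7.74 and 7.99 with vehicle. The arrays were apart in both, by little in siCt. SYVN1 rose by 0.54 (SE 0.12, 1.45 times, adjusted p = 0.00571) in siCHD8, and its change in siCt was 0.24 (SE 0.12, adjusted p = 0.198). SEL1L had changes of -0.30 (adjusted p = 0.156) in siCHD8 and -0.04 in siCt, so that the genes of the pair differed in sign in siCHD8. EDEM1, which directs misfolded glycoproteins to degradation, had 0.23 in siCHD8 and 0.31 (adjusted p = 0.148, or 0.0373 without siCt EtOH replicate 2) in siCt, and HERPUD1, a scaffold of the same pathway, had 0.26 (adjusted p = 0.131) in siCHD8 and 0.15 in siCt.

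The sensors and factors of the arm did not pass in either. ERN1, the gene of IRE1, was at 5.84, 5.87 and 5.78 in siCHD8 with R5020, against 5.42, 5.60 and 5.43 with vehicle, and at 5.71, 5.65 and 5.54 in siCt with R5020, against 5.49, 5.34 and 5.63 with vehicle. Its arrays were apart in siCHD8, with a change of 0.35 (adjusted p = 0.0512), and overlapped in siCt, with 0.14 (adjusted p = 0.412). The siCHD8 change passed without siCHD8 EtOH replicate 2 (0.0471) or siCt EtOH replicate 2 (0.0465) or 3 (0.0327). ATF6 was at 8.45, 8.50 and 8.39 in siCHD8 with R5020, against 8.52, 8.34 and 8.36 with vehicle, and at 8.56, 8.50 and 8.55 in siCt with R5020, against 8.39, 8.48 and 8.28 with vehicle. XBP1 was at 10.99, 11.05 and 10.85 in siCHD8 with R5020, against 10.94, 10.86 and 10.88 with vehicle, and at 11.02, 10.78 and 11.03 in siCt with R5020, against 11.00, 11.09 and 10.58 with vehicle. The arrays of ATF6 overlapped in siCHD8 and were apart in siCt, and those of XBP1 overlapped in both. The change of ATF6 was 0.04 in siCHD8 and 0.16 in siCt. That of XBP1 was 0.07 (95% interval -0.21 to 0.36) in siCHD8 and 0.05 (-0.23 to 0.34) in siCt.

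Among the chaperones and folding enzymes none passed. CANX and CALR, the lectin chaperones calnexin and calreticulin, had -0.20 and -0.15 in siCHD8, and 0.16 and -0.14 in siCt. HYOU1, an ER relative of the heat shock chaperones, had 0.14 in siCHD8 and 0.04 in siCt, and the disulfide isomerase genes PDIA4 and PDIA6 had -0.07 and -0.04 in siCHD8, and -0.02 and 0.30 in siCt. CRELD2 had 0.23 in siCHD8 and -0.06 in siCt, and SDF2L1, a partner of the ER chaperones, 0.16 in siCHD8 and -0.30 in siCt. The shared probe sets of PDIA3 had -0.14 and -0.16 in siCHD8 and 0.09 and 0.08 in siCt. SEC61A1 and SEC61B, channel subunits through which proteins enter the ER, had 0.22 and 0.38 in siCHD8, and 0.19 and -0.03 in siCt. SEC61B was at 8.84, 8.59 and 8.68 in siCHD8 with R5020, against 8.38, 8.26 and 8.33 with vehicle, with arrays apart and an adjusted p of 0.0579, which was 0.0303 and 0.0345 without siCt EtOH replicate 1 or 3. The genes with an ER stress element of either kind in the promoters shown, HERPUD1, HYOU1 and XBP1, were among those that did not pass, and MANF and SYVN1 had no match to the patterns sought.

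**Figure D3:**
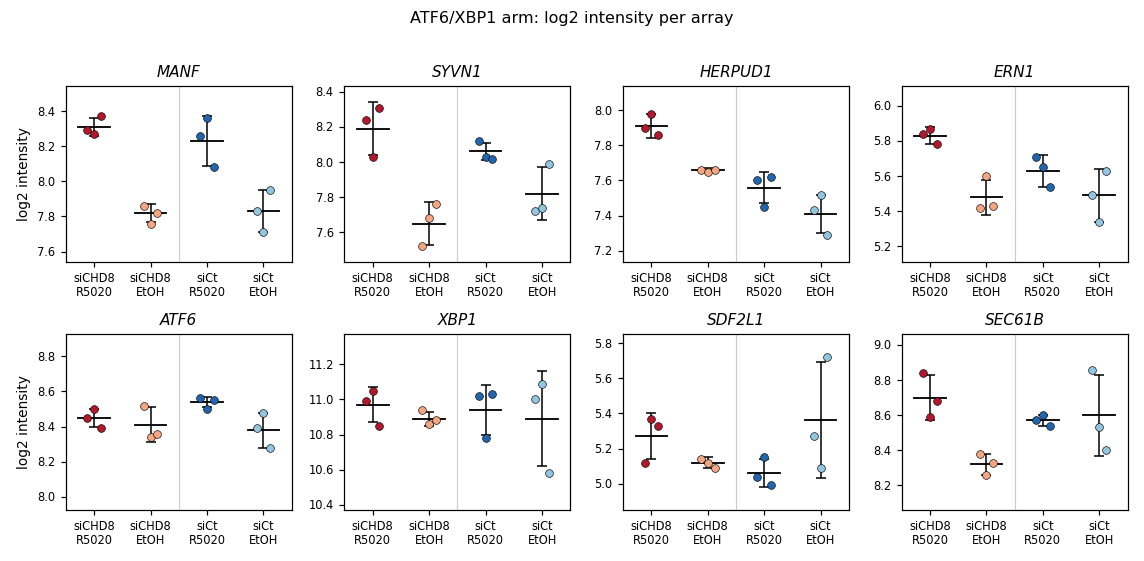
Log2 intensity of 8 genes of the ATF6/XBP1 arm on each array, by condition (siCHD8 with R5020, siCHD8 with vehicle, siCt with R5020, siCt with vehicle), with the mean as a line and the SD as bars (n = 3); the vertical axes differ in range and do not start at 0. The R5020 points lie above the vehicle points for MANF and SYVN1 in siCHD8 and in siCt, while those of XBP1 overlap.

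The mean of each arm was also taken on each array. For the ATF4 arm it was 7.18, 7.18 and 7.11 in siCHD8 with R5020, against 7.07, 6.96 and 6.92 with vehicle, and 7.32, 7.32 and 7.25 in siCt with R5020, against 7.03, 7.08 and 7.00 with vehicle. For the ATF6/XBP1 arm it was 8.08, 8.11 and 8.09 in siCHD8 with R5020, against 8.00, 7.95 and 7.90 with vehicle, and 8.05, 8.03 and 8.03 in siCt with R5020, against 7.97, 7.97 and 7.89 with vehicle. The R5020 arrays lay above the vehicle arrays in both arms and with both siRNAs. With R5020 the siCHD8 arrays lay below the siCt arrays in the ATF4 arm and above them in the ATF6/XBP1 arm. With vehicle the siCHD8 and siCt arrays overlapped in both arms. These means are given as a description, without a test.

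The second question was whether siCHD8 cells differ from siCt cells in these genes. No gene of either arm passed an adjusted p of 0.05 in limma with R5020, where 0.189% of all probe sets did, or with vehicle, where 0.292% did. Unadjusted p-values under 0.05 were found for 7 of 18 in the ATF4 arm and 1 of 17 in the ATF6/XBP1 arm with R5020, against 13.9% of all probe sets. With vehicle there were 4 of 18 and 3 of 17, against 12.1%. With R5020 7 of 18 ATF4-arm genes had every siCHD8 array below every siCt array and 1 had every one above, where 15.3% of all probe sets lay below and 12.3% above. With vehicle 4 lay below and 1 above, where 8.05% of all probe sets lay below and 5.63% above. In the ATF6/XBP1 arm 3 of 17 lay below and 4 above with R5020, and 1 below and 2 above with vehicle. The median difference of the ATF4 arm was -0.13 with R5020 and -0.07 with vehicle, and that of the ATF6/XBP1 arm 0.05 with R5020 and 0.00 with vehicle.

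The 5 enzymes of serine and mitochondrial folate metabolism were grouped by role after their values were seen. On its brightest probe set, each had all siCHD8 arrays below all siCt arrays with R5020, where 15.3% of all probe sets did. These 5 are among the 7 of 18 ATF4-arm genes already counted above, and are not a further result. On the second probe set of PSPH the arrays overlapped, with differences of -0.40 with R5020 (limma adjusted p = 0.318) and -0.07 with vehicle. PHGDH, the enzyme of the entry step, was at 8.30, 8.50 and 8.34 in siCHD8 with R5020, against 8.89, 8.88 and 8.69 in siCt with R5020, and at 8.49, 8.48 and 8.43 in siCHD8 with vehicle, against 8.83, 8.88 and 8.81 in siCt with vehicle. Its differences were -0.44 (SE 0.10, 0.738 times, adjusted p = 0.0912) with R5020 and -0.37 (SE 0.10, 0.771 times, adjusted p = 0.141) with vehicle. With R5020 the others differed by -0.54 (PSPH, adjusted p = 0.18), -0.31 (MTHFD2, 0.294), -0.28 (PSAT1, 0.344) and -0.25 (SHMT2, 0.319). With vehicle SHMT2 had -0.22, again without overlap, and MTHFD2, PSAT1 and PSPH had -0.11, -0.12 and 0.18 with overlapping arrays. SHMT2 was at 9.61, 9.71 and 9.73 in siCHD8 with R5020, against 10.00, 9.99 and 9.81 in siCt with R5020.

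DDIT3 had the lowest unadjusted p of either arm with vehicle. Its 3 siCHD8 arrays, at 8.26, 7.92 and 8.41, lay above the siCt arrays at 7.56, 7.53 and 6.71, a difference of 0.93 (SE 0.19, 1.90 times, unadjusted p = 0.000244, adjusted p = 0.0619). The difference was 0.65 without siCt EtOH replicate 3, the lowest of the 12 arrays for this gene. With R5020 the difference was 0.30 (SE 0.19, adjusted p = 0.51), also with siCHD8 above siCt on every array. DDIT4 ran the other way, at -0.33 (adjusted p = 0.35) with R5020 and -0.57 (SE 0.15, 0.672 times, adjusted p = 0.136) with vehicle, and NUPR1 had -0.05 with R5020 and -0.33 (adjusted p = 0.207) with vehicle. HERPUD1, in the ATF6/XBP1 arm, was at 7.90, 7.98 and 7.86 in siCHD8 with R5020, against 7.60, 7.45 and 7.62 in siCt with R5020, and at 7.66, 7.65 and 7.66 in siCHD8 with vehicle, against 7.43, 7.52 and 7.29 in siCt with vehicle. The siCHD8 arrays were the higher at either treatment, by 0.35 (SE 0.10, adjusted p = 0.151) with R5020 and 0.24 (SE 0.10, adjusted p = 0.347) with vehicle. ERN1 had 0.20 (adjusted p = 0.435) with R5020 and 0.00 with vehicle, and SEC61B 0.13 with R5020 and -0.27 (adjusted p = 0.376) with vehicle.

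**Figure D4:**
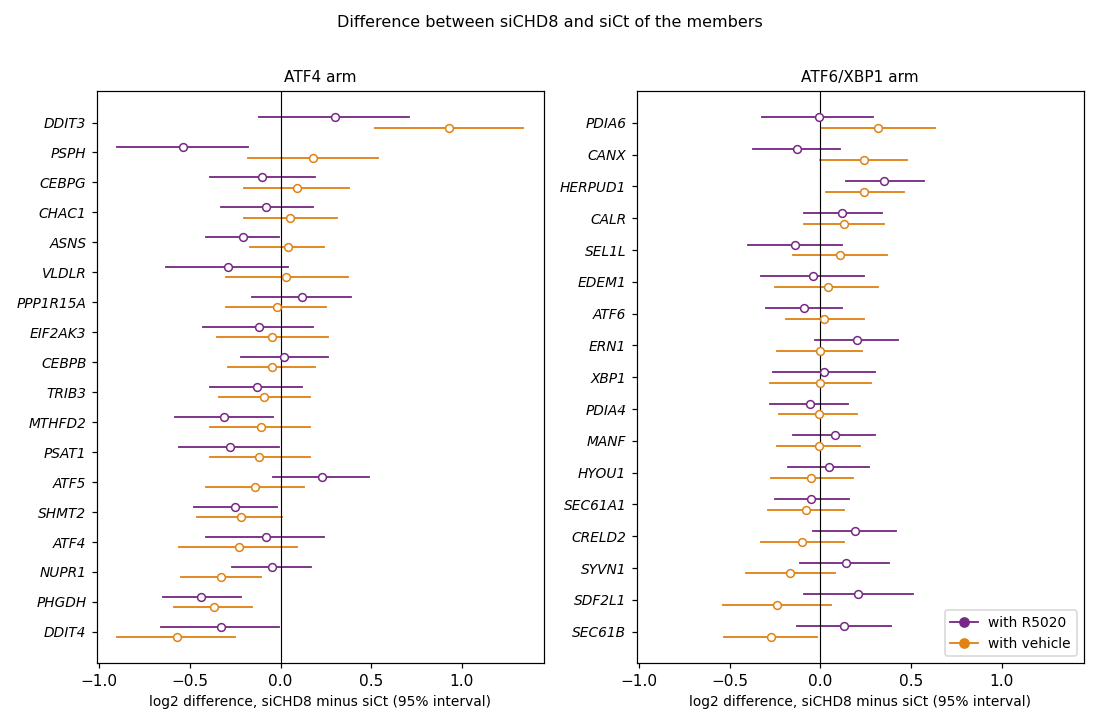
Log2 difference of siCHD8 from siCt for each gene of the ATF4 arm (left) and the ATF6/XBP1 arm (right), with R5020 (purple) and with vehicle (orange), 3 arrays against 3, with 95% intervals. Every point is open, as none passed an adjusted p of 0.05 in limma; DDIT3 with vehicle has the highest value, 0.93, and DDIT4 with vehicle the lowest, -0.57.

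The third question was whether the hormone response itself differed between siCHD8 and siCt. No gene of either arm, and none of the 21214 probe sets (0.0%), reached an adjusted p of 0.05 for this difference in limma. An unadjusted p under 0.05 was found for 2 of 18 in the ATF4 arm and 3 of 17 in the ATF6/XBP1 arm, against 9.55% of all probe sets. In the ATF4 arm these were PSPH, with a response of -1.09 in siCHD8 and -0.37 in siCt and a difference of -0.72 (95% interval -1.23 to -0.21, unadjusted p = 0.00863, adjusted p = 0.49), and DDIT3, with a difference of -0.63 (-1.22 to -0.05, unadjusted p = 0.0354). In the ATF6/XBP1 arm they were SDF2L1 at 0.46 (0.03 to 0.88), SEC61B at 0.41 (0.04 to 0.77) and CANX at -0.37 (-0.70 to -0.03). The difference of DDIT3 was -0.35 without siCt EtOH replicate 3, and without that array the PSPH response in siCt was -0.61. A second probe set of PSPH had a difference of -0.32 (-0.84 to 0.19, unadjusted p = 0.202 in limma). Of the genes that rose in siCt, CEBPG had a difference of -0.19 (-0.60 to 0.21), VLDLR of -0.32 (-0.80 to 0.15) and DDIT4 of 0.24 (-0.22 to 0.70), and these intervals show how large a difference 3 arrays a condition leave undetected.

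Other genes of these pathways were counted from lists that were chosen with earlier results of these data known. These counts are to be read beside the shares of all probe sets that rose (6.04% in siCHD8 and 8.1% in siCt) or passed in either direction (11.5% in siCHD8 and 14.1% in siCt). Of the probe sets with a mean of 5 or more, 19.5% in siCHD8 and 23.1% in siCt passed in either direction. Of 9 amino acid transporter genes that ATF4 induces, 4 rose in siCHD8 and 5 in siCt with R5020 and none fell. The largest changes in siCt were those of SLC38A2 (0.59 in siCHD8 and 0.92 in siCt, SE 0.13 each), which imports neutral amino acids, of SLC7A11 (0.47 in siCHD8 and 0.91 in siCt, SE 0.15 each), the cystine carrier, and of SLC1A4 (0.37 in siCHD8 and 0.58 in siCt, SE 0.12 each). Of these SLC38A2 passed in siCHD8 as well (adjusted p = 0.00528). These 3 were chosen by their change in siCt, and the other 6 had the higher log2 change in siCHD8, among them SLC7A1, the carrier of cationic amino acids (0.77 in siCHD8 and 0.53 in siCt, passing in both), and SLC7A5 (0.46 in siCHD8, adjusted p = 0.00733, and 0.28 in siCt, 0.0852). No difference of responses among the 9 passed in limma, nor had any an unadjusted p under 0.05. Of 12 cytosolic aminoacyl-tRNA synthetase genes 1 rose in siCHD8 (8.33%) and 3 in siCt (25.0%). The share in siCt was near the 23.1% of probe sets with a mean of 5 or more. The 3 were GARS1 (0.31 in siCHD8 and 0.45 in siCt), CARS1 (0.17 and 0.42) and YARS1 (0.37 and 0.33). Of them only YARS1 passed in siCHD8 (limma adjusted p = 0.0211). Of 11 other ATF4 targets and stress regulators 2 rose in siCHD8 (PCK2 by 0.55 and VEGFA by 0.67, named after their values were seen) and 0 in siCt, where 5 had an unadjusted p under 0.05 in limma, against 27.9% of all probe sets. Among 14 genes of eIF2α kinases and initiation factors, 1 fell in siCHD8 (7.14% called, against 11.5% of all probe sets). In siCt 1 rose and 1 fell (14.3%, against 14.1%). EIF2S1, eIF2α itself, rose by 0.50 in siCt (0.15 in siCHD8), and EIF2B5, a subunit of its exchange factor, fell by 0.62 in siCHD8 and by 0.68 in siCt.

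Of 19 other ER chaperone and folding genes, 3 rose in siCHD8 (15.8%, against 6.04% of all probe sets) and 6 in siCt (31.6%, against 8.1%), and none fell. Among probe sets with a mean of 5 or more, the share passing in either direction was 19.5% in siCHD8 and 23.1% in siCt. The 15.8% in siCHD8 lay below that share and the 31.6% in siCt above it. PDIA5, a disulfide isomerase gene, rose by 0.57 in siCHD8 and 0.86 in siCt (SE 0.10 each). DNAJC3, a co-chaperone gene, had 0.41 (adjusted p = 0.0946) in siCHD8 and 0.76 (adjusted p = 0.00194) in siCt, and DNAJB9, another, rose by 0.47 in siCHD8 and 0.51 in siCt (SE 0.12 each). HSPA5 and HSP90B1, the genes of the chaperones BiP and GRP94 that are the usual readouts of the ATF6 and XBP1 branches, had -0.08 and -0.06 in siCHD8 and 0.20 and 0.00 in siCt, and did not pass. Of 15 other degradation genes 2 rose and 1 fell in siCHD8 (20.0% called, against 11.5% of all probe sets and 19.5% of those with a mean of 5 or more). In siCt 2 rose (13.3%, against 14.1% and 23.1%). SELENOS rose by 0.69 in siCHD8 and 0.61 in siCt, and UBE2G2 by 0.44 in siCHD8 and 0.52 in siCt. Of 16 genes of translocation and signal peptide handling 1 rose in siCHD8 (6.25%, against 11.5% called) and 2 in siCt (12.5%, against 14.1%), with SEC62 at 0.58 in siCHD8 and 0.71 in siCt and SSR3 at 0.50 in siCHD8 and 0.87 in siCt. Among 7 membrane-bound factors and proteases, CREB3L2, a factor cleaved in the manner of ATF6, rose by 1.54 (SE 0.12, adjusted p = 3.77e-07) in siCHD8 and by 1.56 (SE 0.12, adjusted p = 2.68e-07) in siCt, while its relative CREB3L4 fell by 0.71 in siCHD8 and by 0.66 in siCt. With vehicle 4 genes of these lists, named after their values were seen, passed between siCHD8 and siCt. They were 1 of the 11 other ATF4 targets, 2 of the 9 transporter genes and 1 of the 19 chaperone and folding genes. Of all probe sets 0.292% passed, and 2.52% did in a fit with dim probe sets left out. The log2 difference was -0.67 for the secreted factor gene STC2 (limma adjusted p = 0.0366) and 0.68 for DNAJB9 (0.0348). It was -0.58 for SLC7A5 (0.0327) and -0.56 for SLC1A5 (0.0498), both amino acid transporter genes. With only the conditions compared in the fit none of the 4 passed (adjusted p = 0.334 to 0.379), and over the 24 alternatives STC2 and DNAJB9 passed in 9 each, SLC7A5 in 7 and SLC1A5 in 4, with their directions kept.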

How the data were processed

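RNA of the 12 samples was hybridized by the authors to Affymetrix Human Gene 1.0 ST arrays. The values deposited are RMA log2 intensities of probe sets, as the submitters' processing notes and the methods state (background correction, quantile normalization and summary of a probe set's probes). The sources used here name no version of RMA. No column was left unused (0), and no further normalization was applied. Of 33297 probe sets, 19460 carry 1 gene symbol in the platform annotation, 1754 several and 12083 none. Those without a symbol were dropped, which left 21214 in the test. Among these 703 repeat the 12 values of another probe set, so a count of probe sets can exceed that of genes.

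All 12 arrays entered 1 limma fit (version 3.58.1, R 4.3.3) with a mean for each condition, moderated by eBayes, and p-values were adjusted by Benjamini-Hochberg across the 21214 probe sets. A gene was called, and "rose" or "fell" written, at an adjusted p under 0.05. Simulated data with known changes served to test the fit. The contrasts were R5020 against vehicle in siCHD8 and in siCt, siCHD8 against siCt with R5020 and with vehicle, and the difference between the hormone responses. The median SE of a log2 change was 0.13 between conditions and 0.19 between responses, and the number of arrays limits this precision. Promoters were searched with Python 3.11.15 and pandas 2.3.3, and figures drawn with matplotlib 3.10.9.

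The genes followed and the other lists were chosen with earlier results of these data known. Any gene of the list could be named. Values per array were given for the genes with the lowest p in each arm and contrast and for the sensors and factors ATF4, DDIT3, ATF6, XBP1, ERN1 and EIF2AK3, and of the other lists up to 3 genes each way with the largest change among those called with R5020 in siCt, besides HSPA5 and HSP90B1. Values per array of NUPR1, SHMT2 and ASNS, and the exceptions named in the text, were added after they were seen. The alternatives were quantile normalization, leaving out dim probe sets (mean under 5), median centring, all probe sets, 1 probe set per gene, array weights, the dimmest probe set of a gene, a trended and robust variance, only the conditions compared, a replicate block, a stricter limit and leaving out arrays.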

Additional observations from a re-analysis of the deposited data

How the results depend on the processing

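Counts of genes passing with R5020 in siCt were 7 of 18 in the ATF4 arm and 1 of 17 in the ATF6/XBP1 arm. With the limits set at a fold over 1.5 and an adjusted p under 0.01 they were 3 and 0, and the ATF6/XBP1 count was also 0 with quantile normalization and with only the conditions compared in the fit. In siCHD8 the counts with R5020 were 5 and 2. At the stricter limit they were 3 and 0, and the ATF6/XBP1 count was 4 with median centring and 4 with dim probe sets left out. Between siCHD8 and siCt with R5020 no gene passed in the fit reported, while in the ATF4 arm 1 passed with dim probe sets left out, 1 with a trended and robust variance, 1 with only the conditions compared, and 2 with array weights and 2 with siCt EtOH replicate 3 and siCHD8 EtOH replicate 1 both left out. These were PHGDH and PSPH, and 1 gene of the ATF6/XBP1 arm, HERPUD1, passed with array weights. With vehicle the ATF4 arm had 2 with dim probe sets left out (DDIT3 and PHGDH) and 1 with a trended and robust variance (DDIT3). The arrays with the lowest weights were siCt EtOH replicate 3 (0.389) and siCHD8 EtOH replicate 1 (0.417). The cause of the changed counts was not tested for any setting.

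Leaving out each array in turn gave 4 to 7 genes of the ATF4 arm and 2 to 4 of the ATF6/XBP1 arm with R5020 in siCHD8, and 6 to 9 and 0 to 1 in siCt, while both counts stayed at 0 for siCHD8 against siCt and for the difference between responses (0 to 0). The call changed for 6 genes in siCHD8 and 8 in siCt, and those arrays are named beside the genes. Over the 35 genes, the 5 contrasts and all alternatives run, 4069 of 4160 values kept their call, 24 lost it and 67, of 16 genes, gained it, and no value called in either fit changed sign. With the replicate number as a block the counts were 5 and 2 in siCHD8 and 8 and 1 in siCt (EIF2AK3 added), and 0 elsewhere. Same-numbered arrays correlated at -0.247 to 0.196 in their deviations from the condition means, over 0.1 in 4 of 18 pairs. Of 12 arrays 1 correlated best with its own number. These values give no sign that the number pairs samples, but with 3 arrays a condition they cannot exclude it. The share of all calls that were higher moved to 69.4% with median centring, beside 57.5%, for R5020 in siCt, and for siCHD8 against siCt with R5020 to 30.8% with quantile normalization, beside 17.5%. The array medians shifted by at most 0.058 between conditions. Brightness limits VLDLR, whose mean of 3.87 was left out with the dim probe sets and whose siCHD8 call was also lost when all probe sets were tested (adjusted p = 0.0771) or only the conditions compared were fitted (0.0703).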
